A study of Homo sapiens with 6 samples.

Results

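The libraries compared here are the 3 made before hairpin induction, of 6 in the series: 2 EXOSC3r clones (clone 1 and clone 2) and 1 PB line, all without doxycycline (dox). They were taken by their labels alone, and the estimated read counts of 1047 sequences were compared in them. All 3 are H1 human embryonic stem cells between passages 40 and 60, grown in mTeSR1 with puromycin and blasticidin, and all carry a dox-inducible short hairpin against EXOSC3. The EXOSC3r lines also carry an EXOSC3 transgene that the hairpin does not target, each line being 1 clone, and the PB line carries the empty vector. The other 3 libraries are the same lines with dox. PB was 1 library without a replicate, nothing in the labels says that a line was cultured more than once, and the comparison therefore speaks of these lines. Transgene effect, clonal variation and culture history cannot be told apart with 1 empty-vector line.

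EXOSC3 is a cap subunit of the RNA exosome, which digests and trims RNA from the 3′ end in the nucleus and the cytoplasm. Much of its nuclear substrate is unstable RNA from promoters, enhancers and intergenic sequence, and human repeats are a large part of such RNA. Pluripotent stem cells are known for transcribing some repeats strongly, HERVH with its LTR7 promoter above all, and for L1 and HERVK activity. The comparison asks how far the rescue clones and the empty-vector line already differed in repeat RNA before the hairpin was switched on.

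Assigned estimated counts totalled 4620771 in EXOSC3r clone 1 and 3941987 in clone 2, against 4493006 in PB. These are reads given to the 1047 indexed sequences and not sequencing depth. Of the names, 2 are the ACTB and GAPDH mRNAs. Most of the other 1045 are repeat consensus sequences, each standing for many genomic copies with no single position. Among the 1045, 159 were listed as conserved or unclassified, HSFAU and UHG among them. Names reaching 10 counts in any of the 6 libraries were tested, which kept 699 of the 799 with any count. Levels below are CPM (counts for each 1000000 of the library) after TMM scaling, which sets the bulk of names level between libraries. EXOSC3 RNA and genes that mark embryonic stem cells were not analysed here, so neither the transgene nor cell identity was checked apart from the HERVH level given below.

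The make-up of the assigned reads differed between the 3 libraries. Alu, the primate short interspersed element that lies in introns and untranslated regions of many transcripts, took 45.4% of counts in EXOSC3r clone 1 (95% Clopper-Pearson interval 45.37 to 45.47) and 41.8% in clone 2 (41.78 to 41.88), against 37.3% in PB (37.25 to 37.34). ACTB and GAPDH together took 17.0% in clone 1 and 14.3% in clone 2, against 13.4% in PB. All remaining names took 37.6% in clone 1 (37.54 to 37.63) and 43.8% in clone 2 (43.80 to 43.89), against 49.3% in PB (49.26 to 49.36). The intervals cover counting error only. PB thus had the largest share of repeats other than Alu, clone 2 came next, and clone 1 stood farther from PB than clone 2 did. As a multiple of the ACTB and GAPDH sum, Alu was at 2.67 in clone 1 and 2.92 in clone 2, against 2.79 in PB, with the clones on either side. The remaining names were at 2.21 and 3.06 times the summed ACTB and GAPDH counts in clones 1 and 2, against 3.68 in PB.

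**Figure D1:**
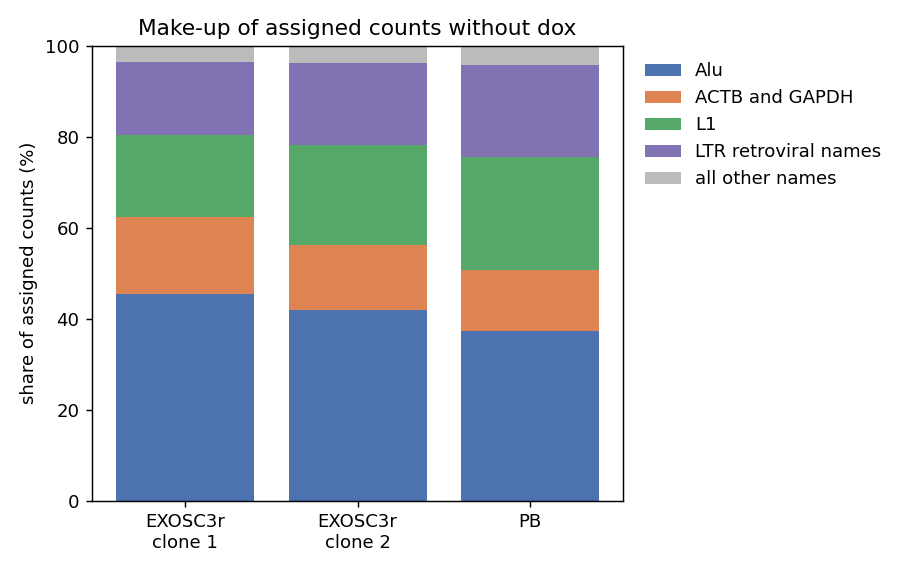
Share of assigned counts (%, vertical axis) taken by Alu, ACTB with GAPDH, all L1 names, names of LTR retroviral elements and the rest, stacked for EXOSC3r clone 1, EXOSC3r clone 2 and PB without dox. L1 takes 18.0% and 22.1% in the clones and 24.9% in PB, LTR names take 16% and 18.0% in the clones and 20.3% in PB, and Alu runs the other way.

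In CPM, Alu and both mRNAs were higher in both clones than in PB. ACTB, cytoplasmic beta-actin, was at 74960 CPM in clone 1 and 53863 in clone 2, against 42270 in PB, a log2 difference of 0.61 ± 0.37 (SE, edgeR, adjusted p = 0.97). GAPDH, the glycolytic dehydrogenase, was at 119578 and 87348 CPM in the clones, against 75120 in PB (0.46 ± 0.31). Alu was at 519948 and 412250 CPM in the clones, against 327007 in PB (0.51 ± 0.38, adjusted p = 0.97). In each the order was clone 1, clone 2, PB, and the gap between the clones was as large as or larger than that between clone 2 and PB. HSFAU and UHG, which matched no repeat pattern, had the same order. HSFAU was at 4653 and 3258 CPM in the clones, against 2420 in PB. UHG was at 2399 and 1758 CPM in the clones, against 1412 in PB. None of the 5 passed. With total counts all 5 were still higher in both clones, whereas with scaling to ACTB and GAPDH the clones lay on either side of PB for Alu. That scaling holds the ACTB and GAPDH sum level. GAPDH being lower and ACTB higher in both clones there shows only their ratio to each other. PTR5, also outside every repeat pattern, was at 53.0 and 54.8 CPM in the clones, against 49.6 in PB (0.12 ± 0.18).

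No sequence differed past the threshold between EXOSC3r and PB cells before dox. The edgeR quasi-likelihood test called 0 of 699 (0%) in either direction at a Benjamini-Hochberg adjusted p of 0.05, the smallest adjusted p being 0.49. DESeq2 also called 0. At an unadjusted p under 0.05 edgeR gave 16 of 699, of which 7 were higher and 9 lower in EXOSC3r cells. That share is below the 0.05 that would arise on average if no name differed. The fit has 2 residual degrees of freedom, from the same 2 clones without and with dox, and treats these libraries as independent. The clone deviations without and with dox correlated at 0.60 over 253 names with a mean of at least 100 CPM, and at 0.15 over all 699. The fit also assumes that PB varies like a clone. Its median 95% interval reached 0.24 on the log2 scale to each side for the 255 names with a mean of at least 100 CPM, and 0.52 over all 699. Simulated counts were made for this comparison, with 200 of the 699 names changed. In them the fit called 19.6% of true log2 changes of 0.5, 76.4% of true changes of 1 and 97.0% of true changes of 2. The adjusted threshold eases as more names change, so these rates can overstate detection where fewer names differ. A log2 shift of 0.5 or less was thus mostly not detectable with these libraries. Larger shifts could be missed too, as the fit called 76.4% and not all of the true changes of 1. ALR, at -0.79 ± 0.13, had the smallest p and was not called. Whether the ALR difference is a missed shift was not tested.

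The distance of PB from the clones was close to the distance between the clones. Over the 528 names with a mean of at least 10 CPM, the median absolute log2 difference from PB was 0.15 for clone 1 and 0.10 for clone 2, against 0.14 between the clones. PB was at least 1.5-fold away from clone 1 for 41 names and from clone 2 for 11, and the clones were that far from each other for 22 (4.17%). PB lay farther from both clones than they lay from each other for 162 of the 528 (30.7%), 86 of them higher and 76 lower in the clones. In the raw counts, the chi-square per degree of freedom was 222 between clone 1 and PB and 45.4 between clone 2 and PB, against 70.0 between the clones. Clone 2 and PB were thus the closest pair by both measures.

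**Figure D2:**
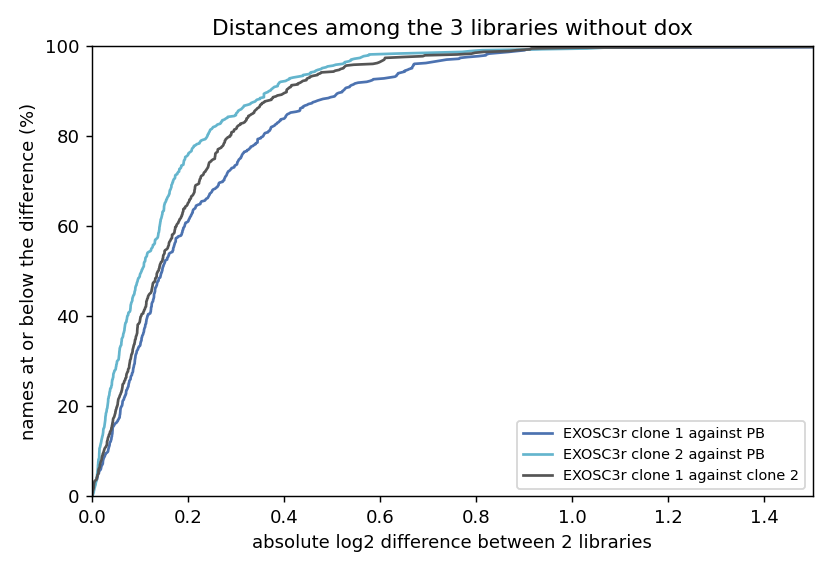
Cumulative share of names (%, vertical axis) at or below a given absolute log2 difference (horizontal axis) for clone 1 against PB, clone 2 against PB and clone 1 against clone 2, over names with a mean of at least 10 CPM and at least 3 counts in PB. The clone 2 curve rises first, with a median of 0.10, and the other curves lie close together at medians of 0.15 and 0.14.

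Both clones lay above PB for 240 of the 699 names (34.3%) and below it for 240 (34.3%). This even split is set by TMM; with total counts it was 64 above and 509 below, and with ACTB and GAPDH scaling 30 above and 579 below. These counts are the background for the repeat classes that follow, in which a direction means relative to the bulk of repeats. A difference of at least 1.5-fold in both clones, with a mean of at least 10 CPM, was seen for 1 of 528 names on the higher side (0.189%) and 5 on the lower side (0.947%), namely MER58A above PB and ALR, LTR77, LOR1b_LTR, MER66B and MER92B below.

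**Figure D3:**
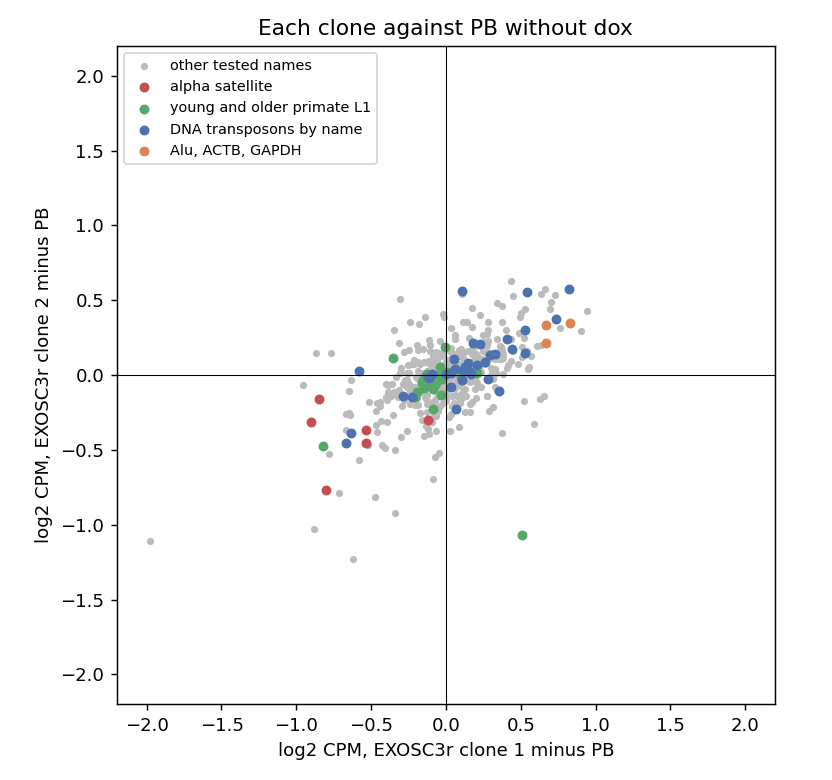
Log2 CPM difference from PB of EXOSC3r clone 1 (horizontal axis) and clone 2 (vertical axis) for 526 names with a mean of at least 10 CPM; both axes share the PB library, so points near the diagonal are no separate evidence. Alpha satellite names lie in the lower left, Alu, ACTB and GAPDH in the upper right, and primate L1 names close to the centre; MIRb lies outside the axes, and MER58A has no usable PB level.

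Alpha satellite RNA, transcribed from the tandem repeats of centromeres, was lower in both clones for nearly all of its names. Of its 7 names, all tested, 6 were lower in both clones than in PB, 1 lay between the clones, and none was called (background 34.3% lower and 0% called). The median log2 difference was -0.46, against 0.01 over all tested names. The estimated counts of ALR, ALR1, ALRb and ALR_ were whole numbers in these 3 libraries, and those of ALRa, ALRa_ and ALR2 were fractional. All 7 are names of one repeat family, and they were measured in the same 3 libraries. The summed family stood at 470 CPM in clone 1 and 572 in clone 2, against 775 in PB (log2 -0.57 ± 0.15, edgeR over summed families, adjusted p = 0.96).

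ALR, the 171-base consensus, was at 106 CPM in clone 1 and 109 in clone 2, against 186 in PB, from 429 and 435 counts in the clones and 951 in PB. The clones averaged 108 ± 1.75 CPM (SD, n = 2) and were far closer to each other than to PB. The log2 difference was -0.79 ± 0.13 (95% interval -1.10 to -0.48), which had the smallest p of all names but did not pass over 699 (edgeR, adjusted p = 0.49); over the alternatives tried, the adjusted p lay between 0.039 and 0.99. It passed only without the clone 2 library with dox (adjusted p = 0.039), which enters the fit through the spread. ALR1 was at 87.2 and 92.3 CPM in the clones, against 126 in PB (-0.49 ± 0.14, adjusted p = 0.97). ALRb was at 23.5 and 26.5 CPM in the clones, against 34.1 in PB (-0.45 ± 0.18, adjusted p = 0.97). For these 3 names of the 7, PB lay farther from both clones than the clones lay from each other. The same held for 220 of all 699 names.

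The other alpha satellite names were less tight. ALR_ was at 183 CPM in clone 1 and 276 in clone 2, against 342 in PB (-0.58 ± 0.24), and the clones differed from each other by 0.59 on the log2 scale. ALRa was at 16.6 and 26.8 CPM in the clones, against 29.9 in PB. ALR2 was at 42.1 and 37.0 CPM, against 45.7 in PB. Both clones were below PB in each, but PB lay closer to 1 of the clones than the clones lay to each other. ALRa_, with 41.3 counts in PB, was at 10.4 and 5.50 CPM, against 8.0 in PB, and so lay on either side. The 6 names below PB were also below it with DESeq2 size factors, total counts, ACTB and GAPDH scaling and TMM without Alu, ACTB and GAPDH. That outcome was largely set beforehand. These settings shifted the median log2 difference of all names by -0.0138, -0.273, -0.481 and 0.00126, so each either barely moved the names or moved nearly all of them down.

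The same lines were also measured with dox, in other libraries. There the hairpin is induced and PB lacks the rescue transgene, so a standing difference between the lines and an effect of the hairpin in PB cannot be told apart in the dox values. ALR with dox was at 211 CPM in clone 1 and 253 in clone 2, against 408 in PB (log2 -0.81 ± 0.12, edgeR, adjusted p = 0.046, where 7 of 699 names, 1%, were called lower and 0 higher). The difference was thus nearly the same size without and with dox, and the change between them was -0.03 ± 0.18. For ALR1 the difference was -0.49 without and -0.92 with dox, and for ALRb -0.45 without and -1.19 with dox. Of the 6 names below PB without dox, 5 were below it in both clones with dox, ALRa being the exception.

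**Figure D4:**
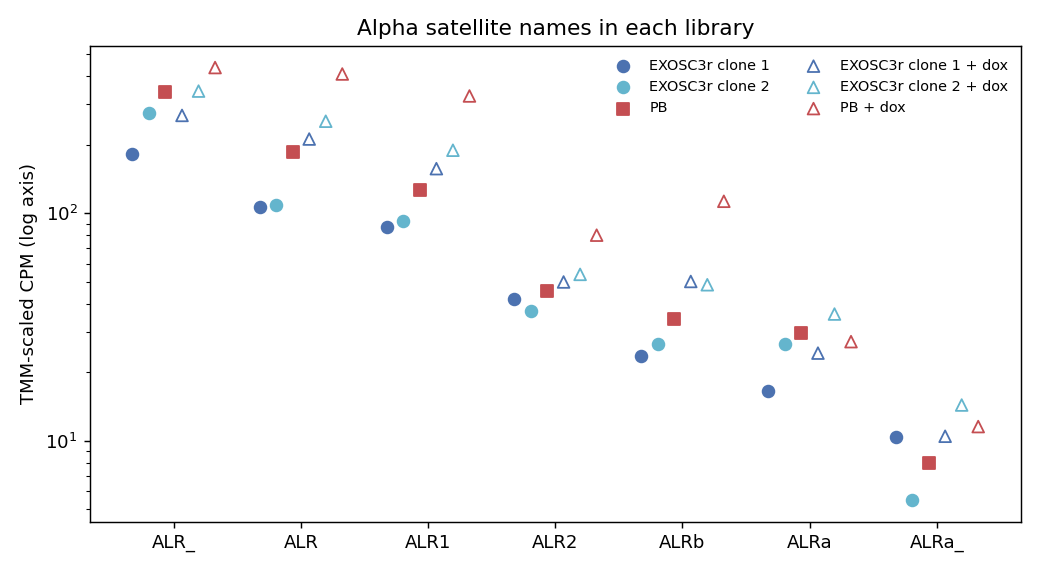
TMM-scaled CPM (log axis) of the 7 alpha satellite names in EXOSC3r clone 1, EXOSC3r clone 2 and PB without dox (filled) and with dox (open triangles). Without dox both clones lie below PB for every name but ALRa_, most tightly for ALR at 106 and 109 CPM in the clones and 186 in PB.

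Satellites outside the alpha family showed no common direction before dox. Of 29 names, 25 had counts and 16 were tested; 5 were higher in both clones, 7 lower and 4 lay on either side, with 0 called and a median log2 difference of -0.07. Of the 16, 8 had a mean of at least 10 CPM and the others rest on few reads. MER22 was at 183 and 195 CPM in the clones, against 202 in PB (-0.10 ± 0.09). The 6kbHsap repeat was at 1482 and 1496 CPM in the clones, against 1529 in PB (-0.04 ± 0.08). ACRO1, from the short arms of acrocentric chromosomes, was at 1.49 and 2.25 CPM in the clones, against 2.73 in PB from 13.7 counts. MER22 and 6kbHsap had log2 differences of -1.20 and -0.87 with dox (edgeR, adjusted p = 0.0055 and 0.0064), so their gaps before dox were small beside those with dox. The changes in the gap were -1.10 ± 0.13 and -0.83 ± 0.11, and neither passed (edgeR interaction, adjusted p = 0.076 for both). GGAAT, the short repeat unit of pericentromeric satellite arrays, was at 63.4 and 59.3 CPM in the clones, against 40.8 in PB (0.59 ± 0.48). With dox GGAAT was at 132 and 54.6 CPM in the clones, against 81.4 in PB, so that the clones no longer lay on one side. CER, a centromeric satellite, was at 39.4 and 53.0 CPM in the clones, against 36.5 in PB (0.34 ± 0.26), and at 51.1 and 64.3 CPM with dox, against 25.5 in PB with dox. CER was thus higher in both clones in each condition and passed in neither. SN5 was at 1.24 and 2.25 CPM in the clones, against 4.68 in PB from 24.0 counts. HSATII was at 4.21 and 3.50 CPM in the clones, against 2.73 in PB, and GSATII at 8.92 and 10.5 CPM, against 7.61 in PB. Counts of HSATII were 17.0 and 14.0 in the clones and 14.0 in PB, so these are near the limit of what can be compared. HSAT5 was at 45.1 and 54.5 CPM in the clones, against 54.1 in PB, and MSR1, a minisatellite, at 27.2 and 28.2 CPM, against 30.4 in PB. SATR1, LSAU and TAR1, the last found next to telomeres, had the clones on either side of PB. SATR2 was at 44.8 and 44.5 CPM in the clones, against 49.4 in PB. BSRa and HSAT4, with 9 and 8 counts in PB, had differences of -0.64 ± 0.80 and 0.66 ± 0.94.

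L1, the autonomous long interspersed element whose youngest human group still moves, was almost level under TMM. L1HS, that youngest group, was at 52537 CPM in clone 1 and 56098 in clone 2, against 54063 in PB, with the clones on either side (log2 0.01 ± 0.12, 95% interval -0.28 to 0.29). L1PA2 was at 2137 and 2202 CPM in the clones, against 2213 in PB (-0.03 ± 0.08). The entry named L1 was at 32225 and 34918 CPM in the clones, against 35759 in PB (-0.09 ± 0.13). L1PA3 and L1PA4 had log2 differences of -0.04 ± 0.09 and -0.03 ± 0.09. Of the 5 young L1 names 4 were lower in both clones, yet their median was -0.03, and summed they stood at 99032 and 105131 CPM in the clones, against 104721 in PB. With total counts the median of these names was -0.30 and with ACTB and GAPDH scaling -0.51. Level thus means relative to the bulk of repeats. L1HS took 4.59% and 5.69% of assigned counts in clones 1 and 2, against 6.17% in PB.

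Older primate L1 names leaned the same way, one after another and by very little. Of 33 names, all tested, 25 were lower in both clones (75.8%, against 34.3% of all names), 2 were higher and 6 lay on either side, with 0 called and a median of -0.07. L1PREC1 was at 19203 and 20726 CPM in the clones, against 21091 in PB (-0.08 ± 0.11). L1PB2c was at 12751 and 13564 CPM, against 13942 in PB (-0.08 ± 0.10). L1PREC2 was at 9155 and 9830 CPM, against 10219 in PB (-0.11 ± 0.10). The order PB, clone 2, clone 1 was common to these 3 names, which is the order of the repeat share and the reverse of that of Alu, ACTB and GAPDH. With dox, 23 of the 33 were lower in both clones. L1M names, the oldest L1, did not share the lean: of 74 tested, 31 were higher in both clones, 21 lower and 22 on either side, with a median of 0.04. L1M1_5 was at 2032 and 2122 CPM in the clones, against 2230 in PB (-0.10 ± 0.09), and L1MA3 and L1MA1 had differences of -0.06 ± 0.08 and -0.01 ± 0.08.

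HERVH, the endogenous retrovirus whose RNA marks human pluripotent cells, was level across the lines under TMM. It was at 27573 CPM in clone 1 and 28170 in clone 2, against 28393 in PB, a log2 difference of -0.03 ± 0.10 with a 95% interval of -0.28 to 0.23. Its share of assigned counts was 2.41% and 2.86% in the clones, against 3.24% in PB. The median of the HERVH and LTR7 names was -0.22 with total counts and -0.43 with ACTB and GAPDH scaling. LTR7Y, one of the LTR7 promoter groups, was at 5928 and 5401 CPM in the clones, against 5445 in PB. LTR7A was at 9884 and 7462 CPM, against 7083 in PB (0.29 ± 0.24), where clone 1 stood apart and clone 2 lay near PB. LTR7B had the same shape at 4221 and 3440 CPM, against 3376 in PB, and LTR7C lay at 111 and 90.8 CPM, against 97.0 in PB. With dox HERVH was at 20520 and 21047 CPM in the clones, against 35679 in PB (-0.78 ± 0.10, adjusted p = 0.035), so the gap seen with dox had no counterpart of that size in the lines before induction. The change in the gap was -0.75 ± 0.15 and did not pass over all names (edgeR interaction, 0 of 699 called, adjusted p = 0.40).

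HERVK, the youngest endogenous retrovirus group (HML-2), differed more between the clones than from PB. It was at 5050 CPM in clone 1 and 6437 in clone 2, against 6221 in PB (-0.12 ± 0.35). Its LTR5_Hs promoter was at 1343 and 1553 CPM in the clones, against 1423 in PB, again on either side. LTR5A was at 622 and 602 CPM, against 545 in PB (0.17 ± 0.08), with the clones close together, and LTR5B and LTR5 had differences of 0.08 ± 0.08 and 0.02 ± 0.10. SVA_A, a hominid composite element mobilised by L1, was at 6713 and 6287 CPM in the clones, against 6371 in PB (0.03 ± 0.10). SVA2 was at 125 and 103 CPM in the clones, against 99.7 in PB. None of these 7 names was called.

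HERV9 and its LTR12 promoters were mostly on either side of PB: of 7 names, 1 was higher in both clones, 2 lower and 4 between. HERV9 itself was at 4467 and 3639 CPM in the clones, against 3690 in PB. LTR12C, the most abundant of the LTRs, was at 7820 and 6701 CPM, against 7153 in PB. The 1 name higher in both clones was LTR12, at 203 and 195 CPM in the clones, against 167 in PB (0.25 ± 0.10, edgeR, adjusted p = 0.97). With dox LTR12 was at 204 and 199 CPM in the clones, against 180 in PB with dox. With near-identical names summed, the entry holding LTR12 had a difference without dox of 0.01 ± 0.12. LTR12F had -0.11 ± 0.09, LTR12B -0.08 ± 0.10, LTR12D 0.06 ± 0.10 and LTR12E -0.08 ± 0.11.

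Among the other retroviral names at least 1.5-fold lower in both clones was LTR77, the LTR of an endogenous retrovirus. It was at 38.9 CPM in clone 1 and 25.5 in clone 2, against 59.7 in PB, from 157, 102 and 306 counts. With dox it was at 36.8 and 23.1 CPM in the clones, against 62.5 in PB, so the levels of each line were close in the 2 conditions and the clones lay below PB in both. The log2 difference was -0.89 ± 0.33 without and -1.06 ± 0.33 with dox (edgeR, adjusted p = 0.97 and 0.61). The 2 names LTR77 and LTR77B summed to 52.3 and 43.3 CPM in the clones, against 81.0 in PB. MER92B was likewise at 8.67 and 8.25 CPM in the clones, against 14.2 in PB, and at 10.7 and 7.31 CPM with dox, against 14.4 in PB with dox. LTR22B was at 12.1 and 14.5 CPM in the clones, against 20.9 in PB, and at 18.1 and 18.0 CPM with dox, against 25.6 in PB with dox. These 3 kept PB highest in both conditions, and none passed.

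Other names lower in both clones before dox varied in how they stood with dox. MER66B was at 16.6 and 15 CPM in the clones, against 30.6 in PB, but with dox at 10.5 and 31.7 CPM, against 22.0 in PB with dox. LOR1b_LTR was at 5.20 and 9.50 CPM in the clones, against 20.5 in PB, and with dox at 0 and 20.2 CPM, against 16.8 in PB with dox. For both names the dox libraries put the clones on either side of PB. MER72 was at 45.1 and 55.5 CPM in the clones, against 71.6 in PB (-0.51 ± 0.19), and its difference with dox was 0.03 ± 0.19. LTR47A was at 43.9 and 45.5 CPM, against 63.0 in PB (-0.50 ± 0.16), and its difference with dox was -0.12 ± 0.17. MLT1I, a MaLR element, was at 3.47 and 4.0 CPM, against 9.95 in PB from 50.5 counts (-1.41 ± 0.43), and its difference with dox was -1.08 ± 0.44. With dox both clones lay below PB for LTR47A and MLT1I, and on either side of it for MER72.

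On the higher side, MER34B_I, an internal retroviral sequence, was at 304 CPM in clone 1 and 262 in clone 2, against 187 in PB (0.60 ± 0.23, adjusted p = 0.97). With dox it was at 403 and 272 CPM in the clones, against 221 in PB, a difference of 0.61 ± 0.23. LTR10D was at 254 and 237 CPM in the clones, against 192 in PB (0.35 ± 0.14), but with dox at 277 and 227 CPM, against 235 in PB. MLT1H1 was at 10.4 and 10.5 CPM in the clones, against 6.05 in PB from 31.0 counts (0.79 ± 0.33). L1M3B_5 and LTR75_1, with 9 and 6 counts in PB, had log2 differences of 1.81 ± 0.57 and 1.65 ± 0.69 without dox and -0.03 and -0.15 with it. With dox MLT1H1 was at 11.5 and 10.5 CPM in the clones, against 7.76 in PB (0.50 ± 0.32). MER34B_I and MLT1H1 were thus higher in both clones in both conditions, while LTR10D, L1M3B_5 and LTR75_1 were not.

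The remaining LTR classes were described by list. Of 148 other LTR names tested, 51 were higher in both clones and 48 lower (34.5% and 32.4%), with a median of 0.03; among the 27 of them with a mean of at least 100 CPM, 17 were higher and 5 lower (63.0% and 18.5%, against 37.6% and 34.5% of all 255). Of 126 LTR-type MER names, 44 were higher and 48 lower, with a median of -0.00. Of 61 other retroviral internal names, 20 were higher and 17 lower. HERV39 was at 15590 and 14957 CPM in the clones, against 14621 in PB (0.06 ± 0.10), and HERV4_I at 3053 and 3061 CPM, against 3520 in PB (-0.20 ± 0.10). LTR17, the promoter of the syncytin-1 retrovirus group, was at 1515 and 1328 CPM in the clones, against 1229 in PB. LTR13 was at 1140 and 1072 CPM, against 959 in PB, and PRIMA4_I at 6593 and 6212 CPM, against 5800 in PB. MER11B and MER11C had differences of 0.10 ± 0.08 and 0.12 ± 0.08. LTR8 and MER11A had differences of 0.03 and 0.01. The MaLR list had 7 of 42 names higher and 19 lower (16.7% and 45.2%) with a median of -0.02, its most abundant member THE1_I being at 10144 and 9845 CPM in the clones, against 10188 in PB. THE1B and THE1C both had differences of -0.02 ± 0.08. The ERVL list had 7 of 30 higher and 12 lower with a median of -0.02, MLT2A1 and MLT2A2 were at -0.11 ± 0.08 and -0.07 ± 0.08, and HERVL was at 4746 and 4943 CPM in the clones, against 5351 in PB (-0.14 ± 0.10).

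DNA transposons, cut-and-paste elements that no longer move in humans and lie largely in introns, leaned to the higher side. Of 130 names, 81 had counts and 58 were tested; 33 of these were higher in both clones (56.9%, against 34.3% of all names), 12 were lower and 13 on either side, with 0 called and a median of 0.10. With total counts the median of this list was -0.18 and with ACTB and GAPDH scaling -0.39, so the lean is relative to other repeats. Neither scaling measures all RNA. With dox 31 of the 58 were higher in both clones and 8 lower, and 23 of the 33 were higher in both conditions. Charlie names had 11 of 15 tested higher and 1 lower, and Tigger names 11 of 18 higher and 4 lower. TIGGER1 was at 7562 and 7448 CPM in the clones, against 7239 in PB (0.05 ± 0.09). Tigger3b was at 1492 and 1330 CPM, against 1215 in PB (0.22 ± 0.11).

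Among DNA transposons 3 of 58 tested names had an unadjusted p under 0.05, where 16 of all 699 did. They were GOLEM_A and GOLEM on the higher side and Kanga1 on the lower. GOLEM_A was at 494 CPM in clone 1 and 438 in clone 2, against 372 in PB (0.33 ± 0.10, adjusted p = 0.97), and GOLEM at 414 and 345 CPM, against 305 in PB (0.31 ± 0.13). With dox GOLEM_A was at 520 and 483 CPM in the clones, against 422 in PB, and GOLEM at 296 and 272 CPM, against 222 in PB. Both stood above PB in both clones and both conditions under TMM, and both lay below PB in both clones without dox under ACTB and GAPDH scaling. Kanga1 was at 0.248 and 1.5 CPM in the clones, against 4.49 in PB from 23.1 counts, which is the opposite direction. ZOMBI_B was at 375 and 385 CPM in the clones, against 331 in PB (0.20 ± 0.08), and with dox at 400 and 381 CPM, against 340 in PB. HSMAR1, a mariner element, was at 1084 and 960 CPM in the clones, against 903 in PB (0.18 ± 0.12). CHARLIE9, picked out after its values were seen, was at 105 and 88.8 CPM in the clones, against 59.5 in PB (0.70 ± 0.32, adjusted p = 0.97), and with dox at 136 and 79.2 CPM, against 66.6 in PB.

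**Figure D5:**
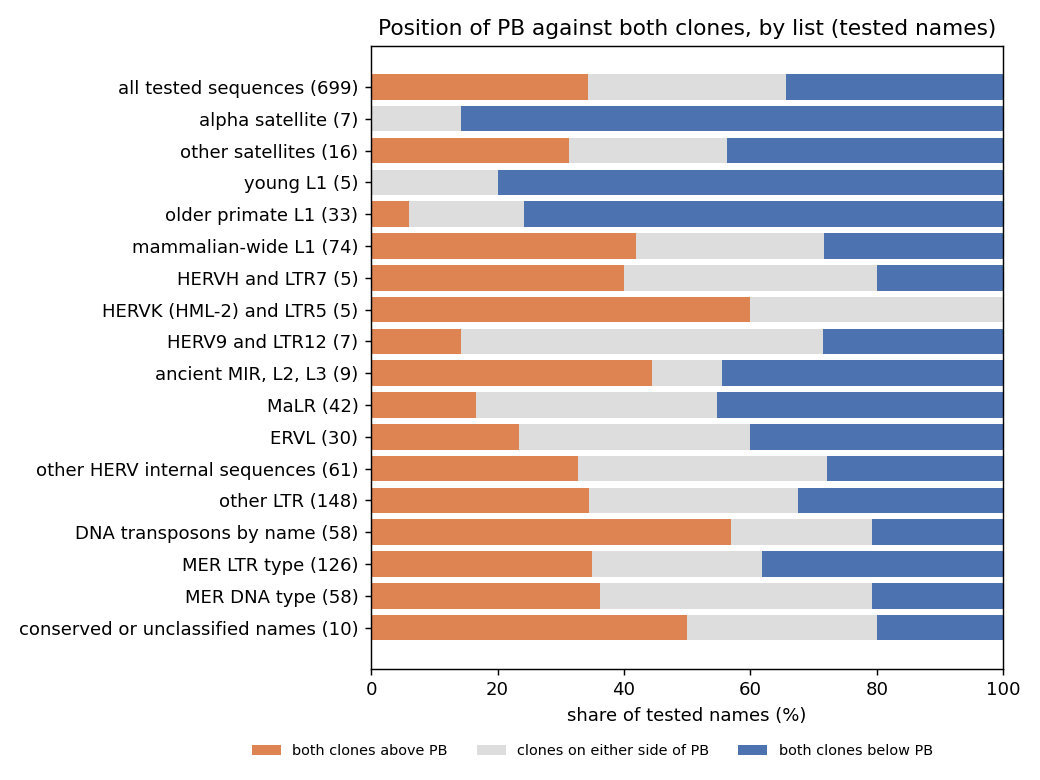
Share of tested names (%, horizontal axis) for which both EXOSC3r clones lie above PB, lie on either side of it or lie below it, by list, with the number tested in brackets; lists with at least 5 tested names are shown. Alpha satellite, young L1 and older primate L1 have large shares below PB (85.7%, 80.0% and 75.8%), and DNA transposons the largest share above it among lists of over 10 names (56.9%), against 34.3% each way over all names.

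MER58A, a short DNA transposon of the hAT type, had the widest gap and the least stable estimate. It had 328 estimated counts in clone 1 and 154 in clone 2, against 0.0099 in PB. Set against 3 counts in PB, it was at least 139-fold higher in clone 1 and at least 65.8-fold higher in clone 2. With dox it had 16 and 384 counts in the clones, against 150 in PB, so that PB lay between the clones. The near-zero value was thus in 1 library only. It did not pass (edgeR, adjusted p = 0.97), but it passed with total counts, with ACTB and GAPDH scaling, in the 3 libraries without dox alone and on TPM, with adjusted p-values from 1.09e-38 to 0.046. Its relative MER58B, also chosen afterwards, had 209 and 234 unscaled counts in the clones, against 254 in PB. The TMM-scaled library size was also largest in PB (5124852, against 4036488 and 3999589 in the clones), so these counts do not place PB higher. Under TMM, 3 of the 4 MER58 names were higher in both clones, 0 were lower and 1 lay on either side. The 4 MER58 names together stood at 149 and 108 CPM in the clones, against 60.0 in PB, and with dox at 70.3 and 141 CPM, against 94.6 in PB. MIRb, an old tRNA-derived element picked out after its values were seen, also had a near-zero value in 1 library, with 3.16 counts in clone 1 and 57.0 in clone 2, against 78.3 in PB. Reads that fit several related names were divided among them by estimation, and the part of that division in these values was not tested. L2, another ancient element, was at 716 and 548 CPM in the clones, against 503 in PB (0.33 ± 0.19). MIRc and MIR had differences of 0.36 ± 0.22 and 0.06 ± 0.15. Of the 58 tested names of short MER DNA transposons, MER58A among them, 21 were higher in both clones, 12 lower and 25 on either side, with a median of 0.06, and the abundant MER1A, MER1B and MER30 were at 0.09 ± 0.09, -0.02 ± 0.08 and 0.02 ± 0.09.

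The clones also differed from each other. Among names with a mean of at least 100 CPM, 2 of 255 were at least 1.5-fold apart, HERVFH19I and ALR_. HERVFH19I was at 192 CPM in clone 1 and 119 in clone 2, against 134 in PB, with the clones 0.69 apart on the log2 scale. LTR3A was at 289 and 204 CPM in the clones, against 198 in PB, and with ACTB, GAPDH and HSFAU, higher in clone 1 by 0.45 to 0.51, it followed in the same direction. In each of these 5 names clone 2 was the nearer to PB. In the other direction ALR_ was followed by HERVL66I at 95.1 and 137 CPM in the clones, against 105 in PB, and by L1PA14_5 at 117 and 162 CPM, against 149 in PB. ERVL-B4 was at 277 and 364 CPM in the clones, against 435 in PB (-0.44 ± 0.26).

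Across all names, the direction without dox was set beside that with dox. Of the 240 names higher in both clones without dox, 116 were also higher in both with dox (48.3%, where 34.2% of all 699 were), and 54 were lower in both. Of the 240 lower without dox, 119 were lower in both with dox (49.6%, where 33.6% of all were), and 41 were higher in both. Over the 255 names with a mean of at least 100 CPM, the EXOSC3r minus PB difference before dox correlated with that after dox across names, with a Pearson r of 0.68 and a Spearman rho of 0.56. Over the 528 with at least 10 CPM these were 0.33 and 0.41. The dox values also hold any effect of the hairpin in PB, which these numbers do not separate from a difference between the lines. Names are not independent, and the points share lines, read division and scaling although no library is common to both comparisons. Under TMM, differences without dox were -0.03 for HERVH, -0.10 for MER22 and -0.04 for 6kbHsap on the log2 scale, against -0.79 for ALR.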

How the data were processed

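Total RNA of 6 libraries was depleted of rRNA and made into stranded libraries, per the labels' protocols. bcl2fastq 2.17, Trimmomatic 0.36 and Salmon 0.13.0 are named in the submitters' processing notes; the index source, options and genome build are not given in the sources used here. Per the file headers, each deposited table holds an estimated count, a TPM value (summing to 1000000 over the 1047 indexed sequences), a length and an effective length. Lengths in bases were used only to describe the consensus sequences. Estimated counts were rounded and fitted with edgeR 4.0.16 (R 4.3.3; TMM, 4 group means over all 6 libraries, Benjamini-Hochberg adjustment). The SE is the log2 difference divided by the square root of F. Alternatives used limma 3.58.1 on log2(TPM + 1) and log2(TPM + 0.1) and DESeq2 1.42.0.

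The 2 transcript entries were identified from RefSeq accessions. Repeat lists go by name pattern and are described, not tested. After the names were seen, patterns were corrected for the 2 transcripts and MER names were split by type. Names given with values were the 10 with the smallest p and the 10 with the largest shared fold in each direction, all members of 9 small lists, the 3 most abundant of each other list, and the 5 with the largest clone difference each way; 106 names qualified, 5 more were added after their values were seen (CHARLIE9, MIRb, MER58B, LTR77B and MER93). Members and lists were chosen with earlier results of these data known. P-values set each difference against the spread between the 2 clones within a condition. They hold no spread between PB libraries, as PB had 1 library in each condition. Clone numbers pair the libraries because the same line was used without and with dox (correlation of clone deviations 0.60 over 253 names with a mean of at least 100 CPM, 0.15 over 699). Simulated counts for 699 names, 200 of them changed, served to test the fit: 17 of 651 calls over 5 runs were false.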

Additional observations from a re-analysis of the deposited data

How the results depend on the processing

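The count of calls was 0 in both directions with DESeq2 size factors, DESeq2, TMM without Alu, ACTB and GAPDH, either count filter and summed near-identical names. With the line as a replicate block it was also 0, with a smallest adjusted p of 0.15, but that fit has 1 residual degree of freedom and no longer counts differences between lines as error. MER58A was the 1 call, higher, with total counts, with ACTB and GAPDH scaling and in the 3 libraries without dox alone; limma called 2 higher, MER58A and MER93, at either TPM pseudocount. Leaving out 1 clone library gave 0 to 1 higher and 0 to 1 lower, the calls being MER58A and ALR without the clone 2 library with dox. MER58A rests on a near-zero PB estimate, and MER93 on 0 counts in PB, against 4.61 in clone 1 and 9.26 in clone 2. With dox MER93 had 11.1 and 0 counts in the clones, against 10.9 in PB.

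The median log2 difference of all names shifted by -0.27 with total counts, by -0.48 with ACTB and GAPDH scaling and by -0.42 to -0.43 on the TPM scales. Log2 values of single names under these were taken relative to the shift, which was decided after seeing the data and lowers the number of sign changes. Both clones were above PB for 64 names and below for 509 with total counts, 30 and 579 with ACTB and GAPDH, 40 and 573 on either TPM scale, and 136 and 121 with summed names, where fewer were tested. At least 1.5-fold lower in both clones were 16 with total counts, 33 with ACTB and GAPDH, 29 and 30 on TPM with pseudocounts of 1 and 0.1, and 2 with summed names; 0 were that much higher with at least 10 counts in all 6 libraries. Where the higher level had to exceed the lower by 25% there were 21 higher and 21 lower, and at 2-fold 1 lower.

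Of 1699 pairs of a name and an alternative, 30 changed sign, in 25 names, none of them called. L1HS was at -0.00703 with DESeq2 size factors and with DESeq2, MER11A at -0.00349 and -0.0035, and MER30 at -0.0105 and -0.00252 on the TPM scales with pseudocounts of 1 and 0.1. Leaving out 1 clone library gave log2 ranges of -0.282 to 0.0277 for SATR1, -0.0116 to 0.128 for LTR7Y, -0.256 to 0.0122 for HSAT5, -0.163 to 0.00809 for LTR12E, -0.538 to 0.383 for ALRa_, -0.444 to 0.538 for LSAU, -0.0234 to 0.137 for LTR12D, -0.094 to 0.134 for LTR12C, -0.0777 to 0.126 for LTR5_Hs, -0.0361 to 0.0534 for L1HS, -0.019 to 0.0808 for SVA_A, -0.193 to 0.473 for TAR1, -0.0198 to 0.281 for HERV9, -0.0955 to 0.197 for LTR7C, -0.295 to 0.0494 for HERVK, -0.0518 to 0.0373 for L1MA1, -0.037 to 0.153 for MIR, -0.0412 to 0.00177 for THE1B, -0.0437 to 0.112 for LTR8, -0.0682 to 0.0274 for MER1B, -0.0441 to 0.0852 for MER30, -0.172 to 0.526 for HERVFH19I, -0.137 to 0.387 for HERVL66I and -0.35 to 0.114 for L1PA14_5. Rare names are limited by depth, 171 of 699 having a mean under 10 CPM.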
